A study of Homo sapiens with 8 samples.

Results

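The first 2 hours after a 4-thiouridine pulse were followed at the level of total RNA in THP-1 cells, an established line derived from acute monocytic leukaemia. Total reads per gene at 1 h and 2 h of chase were compared with those at 0 h and 20 min, which makes 4 of the 8 libraries of the series. Of 15380 genes with a read, 9256 had a mean count of at least 50 over these 4 libraries and were tested. Cells in all 4 libraries had received 30 uM 4-thiouridine (4sU), a uridine analogue that enters new RNA, for 12 h with the medium exchanged every 3 h. They were then washed in ice-cold saline and returned to warm medium with 3 mM uridine, and harvested at 0 h, 20 min, 1 h or 2 h. Time since the wash, fresh medium and loss of 4sU therefore changed together and cannot be told apart. The 40 min, 8 h and 12 h chase libraries and a library from cells that never received 4sU were set beside the results. Each condition had 1 library, and the labels do not say whether times came from separate cultures.

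When cells meet a new stimulus, immediate-early genes are switched on first, because the proteins that activate them are already present. Their products, among them the FOS, JUN, EGR, KLF and ATF3 transcription factors, act on a later set of genes, while feedback proteins such as SOCS3, RGS2 and the DUSP phosphatases dampen the signals. Immediate-early mRNAs usually carry signals for fast decay, so their level follows transcription closely. A gene with a long body needs more time between the start of transcription and a finished 3′ end, which is the part of the mRNA read here.

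The 4 libraries held from 8710651 reads (0 h) to 9008816 reads (1 h) in genes, and levels are given as RPM, reads per 1e6 of these reads. The share of reads with a T-to-C change, called labelled below, was 30.6% at 0 h, 30.1% at 20 min, 30.2% at 1 h and 27.1% at 2 h, against 0.0121% without 4sU. All 15 listed markers of a monocytic line had reads in each of the 4 libraries, and 13 of them reached the test. They summed to 23157 reads or more at every time. The granule protein genes ELANE and AZU1 gave 8323 and 2226 of the 23157 reads at 1 h. Of 15 markers of lymphoid, erythroid and epithelial cells, 13 had a read in some library and none reached the test. Those 13 summed to 27 reads at 0 h, 39 at 20 min, 33 at 1 h and 22 at 2 h, with HBA2, ALAS2 and KRT19 at 0 in all 4 libraries. RNA came from whole cultures, so fewer cells with an RNA and less of it per cell cannot be told apart.

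More genes went up than down. A window test in edgeR (quasi-likelihood, both later libraries against both earlier ones) called 172 genes higher, 1.86% of those tested, and 27 lower, 0.292% (Benjamini-Hochberg adjusted p under 0.05). "Rose" and "fell" are used for these calls. The test sets the change between windows against the scatter of the 2 times inside each window, so a gene that moved within a window is called less readily. The counts changed when 1 library was left out. The spread then comes only from the window that keeps 2 libraries, so a call can be lost or gained by that alone. This holds for every call below said to be lost without a library. The log2 of PPP1R10 was 0.99 with all 4 libraries, 1.06 without 0 h and 0.92 without 20 min. That of DUSP1 moved far more, with 1.12, 0.24 and 3.86. Without the 0 h library 47 genes were higher and 2 lower, without 20 min 51 and 3, without 1 h 703 and 326, and without 2 h 249 and 154. The median log2 of later over earlier was -0.007, which the TMM scaling of the libraries sets near 0.

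Genes were also sorted by fold alone, with no test. In 88 genes (0.951% of those tested) the 1 h and the 2 h value were each at least 1.5 times the higher of the 0 h and 20 min values, and in 6 genes (0.0648%) each was 1.5 times under the lower one. A further 206 genes (2.23%) passed this fold upward at 2 h alone and 45 (0.486%) downward. At 1 h alone, 41 genes (0.443%) passed it upward and 23 (0.248%) downward. Just inside the fold for both later times were PPIL4 (1.505) and BRWD3 (1.507), and just outside IFT22 (1.494) and SEC61A2 (1.496). For the lower side NANP (1.510) and DOLK (1.519) were just inside, and CISH (1.423) and GPR84 (1.451) just outside. Of the 88 genes, 78 were also called as having risen, which the shared values make likely and which supports nothing further.

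**Figure D1:**
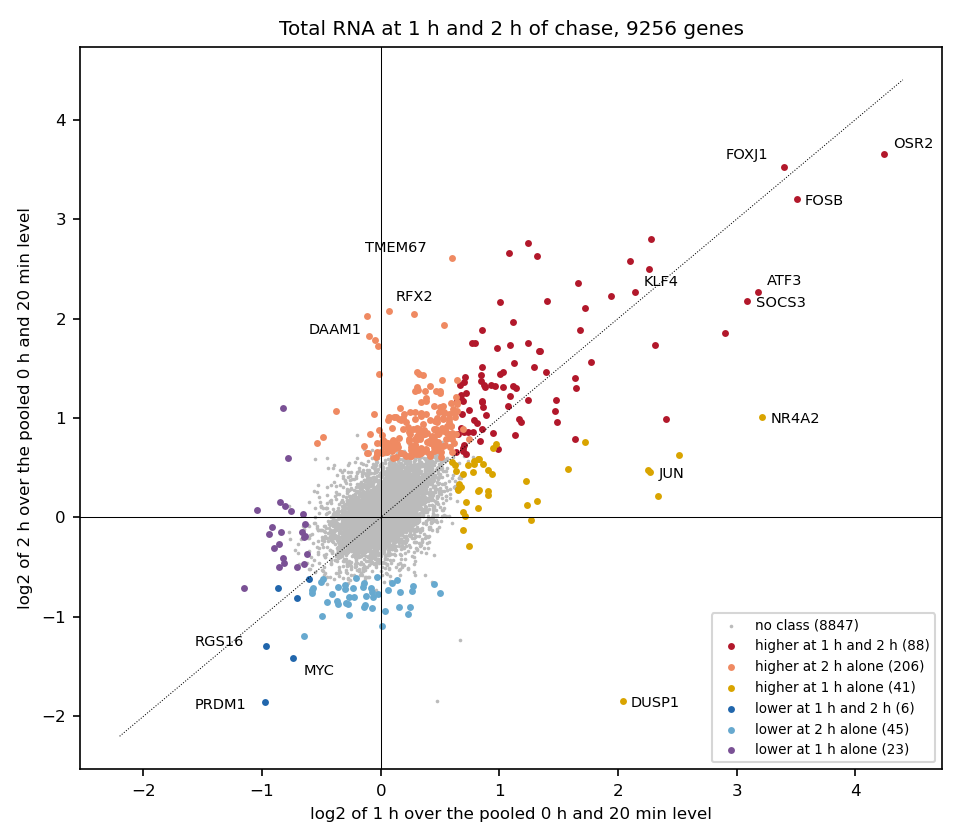
Each point is 1 of 9256 genes: log2 of its 1 h level (x) and 2 h level (y) over the pooled 0 h and 20 min level. Coloured points are the fold classes, with the number of genes in the legend, and the dotted line marks equal folds at 1 h and 2 h. Most coloured points lie above 0, the 206 genes higher at 2 h alone form a column left of the 88 genes higher at both times, and NR4A2, JUN and DUSP1 lie far below the line.

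A 3-level fit in edgeR compared 2 h directly with 1 h. It called 138 genes higher at 2 h (1.49%) and 78 lower (0.843%). The spread in this fit came from the 2 earlier libraries alone, so each later library was assumed to vary like that pair. DESeq2 called only 10 higher and 2 lower, and edgeR without the count filter called 0 and 0 (1031 genes at an unadjusted p under 0.05). A mean count of 200 gave 71 and 22, summed segments 52 and 22, and library totals without TMM 213 higher. Each p of this fit compares 1 library with 1 other, and for genes of the 1 h or 2 h classes the same values chose the gene, so there it describes and supports nothing. Of the 206 genes higher at 2 h alone, 74 were called higher at 2 h than at 1 h and 88 had a 2 h value at least 1.5 times the 1 h value. For the others the 2 times cannot be separated by this rule.

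Several transcription factors were among the genes higher at both later times. OSR2, a zinc-finger factor known from limb and kidney development, had 2.87 RPM at 0 h, 3.40 at 20 min, 59.5 at 1 h and 39.4 at 2 h. It was 19.0-fold over the earlier pool at 1 h (95% exact interval of counting error 14.3 to 25.5). FOSB, a partner of JUN in the AP-1 complex, went from 2.53 and 9.64 RPM to 69.4 and 56.3 RPM, and its earlier values already differed from each other. KLF4, a zinc-finger factor of monocyte differentiation, had 9.99 and 16.0 RPM early and 57.4 and 62.4 RPM later. ATF3, a stress-induced factor of the ATF/CREB family, peaked at 1 h, with 5.85, 4.08, 45.1 and 23.9 RPM in order of time. The log2 change between windows was 3.95 ± 0.24 (SE) for OSR2, 3.34 ± 0.31 for FOSB, 2.18 ± 0.16 for KLF4 and 2.77 ± 0.30 for ATF3 (edgeR, adjusted p from 4.67e-06 to 0.000259). ATF3 and OSR2 were lower again at 2 h than at 1 h (edgeR, adjusted p 0.000747 and 0.0116), while KLF4 did not pass that test (log2 0.10 ± 0.14).

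Of 33 listed immediate-early transcription factors, 28 were tested, 10 rose and 1 fell, against 1.86% and 0.292% of all genes tested, with a median log2 of 0.56 against -0.007 over all genes. KLF6 (128, 150, 433 and 241 RPM at 0 h, 20 min, 1 h and 2 h) and KLF2 (28.1, 44.2, 102 and 70.6 RPM) rose and were lower at 2 h than at 1 h. CEBPD, which drives myeloid differentiation, also rose and peaked at 1 h, with 130, 147, 304 and 247 RPM. IER5, a co-factor of the heat-shock response, had no call between 1 h and 2 h, with 54.6, 69.5, 112 and 115 RPM. KLF6, KLF2, CEBPD and IER5 were in the class higher at both times, which fixes that both later values exceed both earlier ones. JUND and SRF rose by less than the fold, by 0.28 and 0.27 on the log2 scale.

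**Figure D2:**
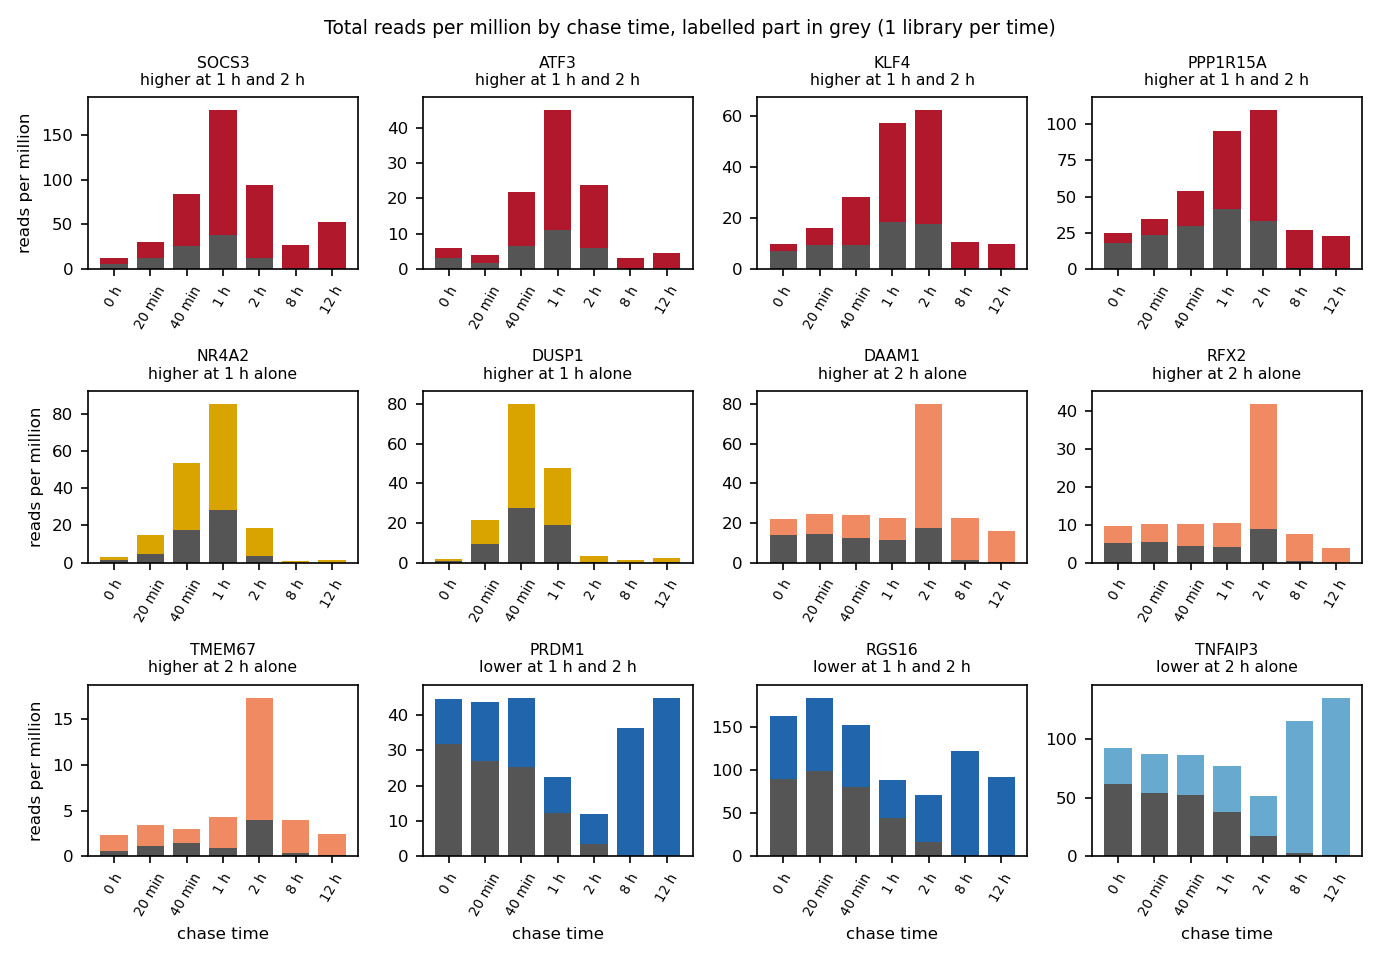
Bars give total RPM (y, linear, from 0) at each of the 7 chase times (x), 1 library per time, for 12 genes, with the labelled part in grey and the unlabelled part in colour. SOCS3 and ATF3 peak at 1 h, NR4A2 and DUSP1 are back to 18.5 and 3.23 RPM at 2 h, and DAAM1, RFX2 and TMEM67 are high in the 2 h library alone.

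Feedback inhibitors and signalling proteins formed the next group. SOCS3, which blocks JAK kinases downstream of cytokine receptors, had 11.8, 29.8, 178 and 94.3 RPM, so that it was lower at 2 h than at 1 h (log2 -0.93 ± 0.17, edgeR adjusted p 0.000434) and stayed above both earlier values. PIM1, a survival kinase induced by STAT factors, was steadier, with 27.7, 28.7, 71.2 and 89.9 RPM. Of 8 tested genes of the SOCS, PIM and cytokine feedback list, 4 rose (SOCS3, PIM1, PIM2 and PIM3) and CISH, a relative of SOCS3, fell, against 1.86% and 0.292% of all genes. CISH had 13.8 and 17.8 RPM early and 7.10 and 9.68 RPM later, and its call was lost without the 0 h or the 20 min library (adjusted p 0.114 and 0.441). RGS2, which turns off G-protein signals, rose from 10.8 and 22.3 RPM to 82.5 and 55.1 RPM.

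Among 22 tested regulators of cAMP and G-protein signalling, 4 rose (CREB1, PTGER2, RGS2 and PER1) and 1 fell (RGS16), against 1.86% and 0.292% of all genes tested, with a median log2 of 0.44. PTGER2, a prostaglandin E2 receptor coupled to cAMP, had 3.90, 1.93, 9.21 and 14.9 RPM, and its call was lost without the 20 min library (adjusted p 0.108). The clock genes PER1 and PER2, which repress the CLOCK and BMAL1 factors and are also induced quickly by cAMP, rose together. PER1 had 10.3, 9.64, 33.0 and 43.1 RPM and PER2 11.4, 12.6, 26.0 and 46.6 RPM, and PER2 alone of the pair was called higher at 2 h than at 1 h (log2 0.83 ± 0.16, edgeR adjusted p 0.0013). The PER2 call between windows was lost without the 0 h library (adjusted p 0.0617). CRY2 and NR1D2, other clock repressors, were past the fold at 2 h alone (18.7 and 10.7 RPM, against 9.19 and 6.31 RPM in the higher earlier library) without a call.

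Stress-response genes were split. PPP1R15A, which brings a phosphatase to eIF2 and so ends the integrated stress response, had 24.9, 34.5, 95.4 and 110 RPM. It was 3.21-fold over the earlier pool at 1 h and 3.69-fold at 2 h. The choice of its fold class fixes that both later values exceed both earlier ones. SESN2 and DDIT3 rose by less, with 2 h values of 49.1 and 48.9 RPM against 25.4 and 29.4 RPM at 0 h. Both lost the call without the 0 h library (adjusted p 0.129 and 0.228) and without the 20 min library (0.266 and 0.242). In all, 4 of 28 tested genes of this ATF4 list rose (these 3 and ATF3) and none fell, against 1.86% and 0.292% of all genes, with a median log2 of 0.10. DDIT4, an inhibitor of mTORC1, had 16.9, 19.6, 9.66 and 17.1 RPM and was low at 1 h alone.

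Other genes past the fold at both times had varied roles. MCL1, a short-lived anti-apoptotic protein of the BCL2 family, was the most abundant of those named, with 528, 551, 901 and 1139 RPM, and was higher at 2 h than at 1 h (log2 0.32 ± 0.05, edgeR adjusted p 2.95e-05). RGCC, a cell-cycle regulator, had 9.87, 7.37, 36.9 and 51.4 RPM. TIPARP, an ADP-ribosyltransferase that represses the aryl hydrocarbon receptor, had 11.8, 9.98, 41.7 and 51.1 RPM. All 3 genes rose (edgeR, adjusted p from 1.8e-05 to 6.86e-05), and their class fixes that both later values exceed both earlier ones. MYCL, a relative of MYC, rose while MYC fell, with 32.9, 35.3, 56.1 and 81.4 RPM, and its call was lost without the 0 h library (adjusted p 0.0628). Of 26 tested delayed-response genes of growth stimulation, 5 rose and 1 fell, against 1.86% and 0.292% of all genes, with a median log2 of 0.36 against -0.007.

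Because several risers are known cAMP targets, promoters were searched for the cAMP response element. RefSeq promoters (GRCh38.p14, 250 bases before to 50 after the start) matched 7477 of the 9256 genes by symbol. The element TGACGTCA, a palindrome, stood in 263 promoters (3.52%), in 4 of 72 matched genes higher at both times (5.56%) and in 5 of 167 higher at 2 h alone (2.99%). It also stood in 3 of 35 genes higher at 1 h alone (8.57%) and in 3 of 31 lower at 2 h alone (9.68%), which was the highest share of any class. These windows show the element in capitals for 3 of the 4 genes higher at both times (FRAT1 is not printed). DUSP1, higher at 1 h alone, is printed as well, and each window is on the gene's own strand.
PPP1R15A: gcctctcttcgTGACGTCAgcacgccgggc
MLF1: cctcgtcctggTGACGTCAcagagcaatgt
IFT57: agggccacaggTGACGTCAttcaggaaagc
DUSP1: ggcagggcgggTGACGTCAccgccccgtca
They lie at chr19:48872352-48872381 (plus strand), chr3:158571100-158571129 (plus), chr3:108222487-108222516 (minus) and chr5:172771302-172771331 (minus). The other motifs were searched on both strands as well. The shorter TGACG, which is part of the element, stood in 36.4% of all promoters and in 36.1% and 36.5% of the same 2 classes. The AP-1 letters TGANTCA stood in 4.07% of all promoters and in 4.17% and 5.99%, the E-box CACGTG in 10.8% and in 9.72% and 13.2%, and the NF-kB motif (3 G, any 5 bases, then 2 C) in 74.1% and in 77.8% and 73.1%. The ETS letters CCGGAAG stood in 22.2% of all promoters, in 13.9% of those higher at both times and in 20.4% of those higher at 2 h alone. The CArG box stood in 1.1% of all promoters and in 2 of 72 and 1 of 167. No test was made of these shares.

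Some immediate-early genes had already come down by 2 h. NR4A2, an orphan nuclear receptor, had 3.21, 15.1, 53.4, 85.4 and 18.5 RPM at 0 h, 20 min, 40 min, 1 h and 2 h. DUSP1, a phosphatase that inactivates MAP kinases, had 1.72, 21.3, 80.1, 47.6 and 3.23 RPM, so it peaked at 40 min. JUN had 24.5, 60.4, 165, 205 and 58.3 RPM, and its 2 h value lay between its earlier ones. The window test called none of the 3 (adjusted p 0.0686, 0.617 and 0.11 in edgeR), and their levels moved within both windows. The 3-level fit called all of them lower at 2 h than at 1 h, by log2 -2.23 ± 0.24 for NR4A2, -3.90 ± 0.50 for DUSP1 and -1.84 ± 0.20 for JUN (SE, edgeR). Other genes past the fold at 1 h alone included the kinase genes SIK1 and SGK1, the receptor gene PTGER4, the MAP kinase phosphatase gene DUSP6 and RGS1. DUSP6 had 60.3, 110, 256 and 120 RPM at 0 h, 20 min, 1 h and 2 h. Without the 2 h library the log2 between windows was 3.20 for NR4A2 and 2.03 for DUSP1. That comparison repeats the values that put these genes in the class, so it supports nothing. Without the 1 h library the log2 between windows was -1.86 for DUSP1 and 0.99 for NR4A2. At 2 h NR4A2 and DUSP6 were still 2.01-fold and 1.40-fold over the earlier pool, and DUSP1 was at 0.279-fold. Of the 41 genes in this class, 14 were called lower at 2 h than at 1 h, a direction that the choice of the class fixes. DUSP10 was the 1 of 7 tested MAP kinase feedback genes that rose, against 1.86% of all genes. Its call was lost without the 0 h or the 20 min library.

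The fastest genes had left their starting level by 20 min, which the rule counts as early. FOS, chosen after its values were seen, had 10.3, 160, 355, 119 and 23.7 RPM at 0 h, 20 min, 40 min, 1 h and 2 h. EGR1, chosen the same way, had 10.6, 34.7, 41.7, 36.2 and 9.68 RPM. Neither lay in a fold class or passed the window test (edgeR, adjusted p 0.912 for FOS and 0.999 for EGR1), and both were lower at 2 h than at 1 h (adjusted p 0.00934 and 0.000165).

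Among genes higher at 2 h alone, ANKRD28, a subunit of protein phosphatase 6, had 20.3, 18.7, 23.6 and 80.7 RPM at 0 h, 20 min, 1 h and 2 h. DAAM1, a formin that links Wnt signals to actin, had 22.0, 24.5, 22.5 and 80.1 RPM. Neither was called between windows (edgeR, adjusted p 0.101 and 0.201). Without the 1 h library their log2 was 2.02 and 1.76, which repeats the values that chose them and supports nothing. In both genes the 1 h value was near the earlier ones and the 2 h value stood apart, higher than at 1 h by log2 1.75 ± 0.14 and 1.81 ± 0.14 (SE, edgeR). HEG1, a receptor of endothelial junctions, had 26.3, 20.0, 28.2 and 55.8 RPM. CSTF3, a cleavage factor of mRNA 3′ end formation, had 20.8, 21.1, 22.0 and 42.1 RPM in the segment counted. Its log2 between windows, not called, was 0.59 in that segment and 0.16 with its distinct segments summed. PPP1R10, which anchors protein phosphatase 1 in the nucleus, had 38.8, 35.2, 52.9 and 96.4 RPM and rose in the window test, a call lost without the 0 h or the 20 min library (adjusted p 0.172 and 0.236). PRICKLE1, a planar polarity protein, and CDC42EP4, an effector of CDC42, reached 47.0 and 64.1 RPM at 2 h against 24.9 and 36.7 RPM at 1 h. LRP12, a receptor of the LDL receptor superfamily, had 16.5, 18.5, 24.2 and 42.2 RPM and rose by a narrow margin (adjusted p 0.0499), a call lost without the 0 h, 20 min or 2 h library (0.447, 0.222 and 0.125). Of the 206 genes, 46 rose in the window test.

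Regulators were also among the genes past the fold at 2 h alone. IRF1, a transcription factor of the interferon response, had 81.9, 81.2, 87.8 and 140 RPM and was called higher at 2 h than at 1 h (log2 0.65 ± 0.10, SE, edgeR). Of 27 tested interferon-stimulated genes it was the only member in a fold class, here that higher at 2 h alone, which held 2.23% of all genes. KLF10 went the other way first, with 38.1, 36.5, 26.6 and 65.6 RPM. RC3H1, an RNA-binding protein that degrades inflammatory mRNAs, had 92.1, 91.2, 127 and 146 RPM and rose. NFE2L2, the master factor of the antioxidant response, also rose, with 99.1, 99.6, 142 and 151 RPM. None of the other 20 genes tested on its list did, against 1.86% of all genes. At 1 h RC3H1 and NFE2L2 were already 1.39-fold and 1.43-fold over the earlier pool, just under the fold. Neither was called between 1 h and 2 h (log2 0.19 ± 0.09 and 0.08 ± 0.09, SE, edgeR), so the 2 times cannot be separated for them. RC3H1 lost its call between windows without the 0 h or the 20 min library. JMJD1C, a chromatin regulator needed by some leukaemias, had 32.7, 33.2, 47.7 and 68.2 RPM, and its call was lost the same way (adjusted p 0.158 and 0.144).

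Genes of the cilium recurred among those that went up, although THP-1 is a blood line and most mature leucocytes lack a primary cilium. The list of cilium and basal body genes was added after these values were seen, so its counts describe and support nothing. Of 89 tested members 13 rose and none fell, against 1.86% and 0.292% of all genes, and the median log2 was 0.21. The class higher at both times held 8 of them and that higher at 2 h alone 18, against 0.951% and 2.23% of all genes. FOXJ1, a master factor of motile cilia, had 2.18 and 0.567 RPM early and 14.4 and 15.7 RPM later, 11.5-fold over the earlier pool at 2 h (95% exact interval 7.40 to 18.5). Its level rested on few reads, and it was at 0.0891 RPM at 8 h and 0 at 12 h. RFX2, which cooperates with FOXJ1, had 9.64, 10.2, 10.4 and 41.9 RPM at 0 h, 20 min, 1 h and 2 h. TMEM67, a protein of the ciliary transition zone, had 2.30, 3.40, 4.33 and 17.4 RPM, and MOK, a kinase that limits cilium length, 6.77, 7.03, 9.99 and 26.4 RPM. These 3 genes were low in all of the first 3 libraries and high at 2 h alone, by log2 1.98 ± 0.20, 1.98 ± 0.32 and 1.38 ± 0.22 over 1 h (SE, edgeR). CBY1, a basal body protein, had 16.6, 15.3, 32.6 and 44.1 RPM, MLF1 14, 14.3, 27.5 and 35.3 RPM, and IFT57, a subunit of the intraflagellar transport machine, 8.38, 9.30, 16.0 and 25.3 RPM. All 3 rose.

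Few genes went down at both times. PRDM1, a transcriptional repressor best known from plasma cells, had 44.4, 43.6, 22.4 and 12.1 RPM and fell (log2 -1.37 ± 0.20, edgeR adjusted p 0.003). It was lower again at 2 h than at 1 h (log2 -0.90 ± 0.19, adjusted p 0.002), and its window call was lost without the 0 h library (adjusted p 0.057). RGS16, an inhibitor of G-protein signals like RGS2, moved opposite to it, with 163, 184, 88.7 and 70.7 RPM. BTG2, an anti-proliferative protein that recruits the deadenylase complex, had 68.3, 69.4, 37.7 and 42.1 RPM. It was also the 1 gene of 23 tested on the p53 target list that fell, against 0.292% of all genes. MYC, the growth factor-responsive transcription factor, had 28.1, 32.4, 18.2 and 11.4 RPM, and its call was lost without the 0 h or the 20 min library (adjusted p 0.0879 and 0.198). All 4 genes fell, and their class fixes that both later values lie under both earlier ones. The other 2 of the 6 were DOLK and NANP, enzymes of glycosylation and sialic acid synthesis, at 13.7 and 13.0 RPM at 0 h and 8.91 and 6.90 RPM at 2 h, neither of them called.

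Inflammatory mediators made up part of the genes lower at 2 h alone. Of 16 tested monocyte cytokine and chemokine genes, 5 were in that class, against 0.486% of all genes tested, and the median log2 of the list was -0.22. IL1B had 21.9, 25.4, 26.4 and 12.7 RPM and CXCL8, a neutrophil chemoattractant, 18.8, 24.4, 25.4 and 11 RPM. HBEGF, TNFSF9 and TNFSF14 were the other 3, with 11.7, 12.6 and 28.9 RPM at 2 h and 22.4, 19.4 and 57.6 RPM at 0 h. All but HBEGF were called lower at 2 h than at 1 h, and none of the 5 was called between windows. TNFAIP3, which ends NF-kB signals, had 93.0, 87.2, 77.1 and 51.6 RPM. ZFP36L2, a protein that degrades AU-rich mRNAs, was the most abundant gene named in this class, with 697, 746, 558 and 402 RPM, and fell. Of 12 tested mRNA decay adaptor genes, ZFP36L2 and BTG2 fell and RC3H1 rose, against 0.292% and 1.86% of all genes. TENT5A, a poly(A) polymerase, also fell, with 115, 112, 91.8 and 70.9 RPM, and FAM78A had 36.3, 37.7, 28.9 and 22.8 RPM without a call. ZFP36L2 and TENT5A lost their calls without the 0 h library (adjusted p 0.0939 and 0.344) or the 20 min library (0.175 and 0.198). TNF was low at 1 h alone, with 48.0, 63.2, 30.6 and 46.3 RPM.

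Not every inflammatory gene went down. NFKBIA, the main inhibitor of NF-kB, rose from 346 and 353 RPM to 489 and 521 RPM, while NFKBIE, a related inhibitor, fell from 116 and 116 RPM to 94.6 and 95.3 RPM, a call lost without TMM scaling (adjusted p 0.0505) and without the 0 h or the 20 min library (0.427 and 0.311). The activation marker CD83 rose, with 123, 111, 172 and 144 RPM. Of 25 tested myeloid granule and surface genes, 3 fell and none rose, against 0.292% and 1.86% of all genes, and these were the neutrophil granule proteases and relatives AZU1, ELANE and PRTN3. ELANE had 1211, 1124, 924 and 1052 RPM, a change of log2 -0.26 ± 0.06 (edgeR, adjusted p 0.0445), and its labelled share stayed low at 4.87% at 0 h and 4.69% at 2 h. All 3 calls were lost without the 0 h or the 20 min library and with distinct segments summed (adjusted p from 0.0571 to 0.66). CEBPA, a factor of myeloid fate, fell as well, with 296, 322, 252 and 231 RPM.

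Most housekeeping lists held no call between windows, where 1.86% of all genes tested rose and 0.292% fell. At these shares lists of such size would hold few calls or none, so a lack of calls says little about them. None of the 35 tested mitosis genes, 62 respiratory chain genes, 84 cytoplasmic ribosomal protein genes, 27 cholesterol genes, 25 genes of pyrimidine and nucleotide synthesis or salvage, 16 SR and TRA2 splicing factor genes and 8 metallothionein genes was called between windows, and their medians lay between -0.18 and 0.05. Between 1 h and 2 h, 5 of the 84 ribosomal protein genes and 1 of the 62 respiratory chain genes were called lower, against 0.843% of all genes tested. Of 42 replication genes none was called between windows. DNA2 and POLD3 were past the fold at 2 h alone, against 2.23% of all genes. Called higher at 2 h than at 1 h were 2 of the 42, POLD3 among them, against 1.49% of all genes. Of 269 ZNF genes 1 rose and 2 fell, against the same 1.86% and 0.292% of all genes. In the heat-shock and chaperone list HSF2 rose and HSPB1 fell among 27 tested, HSF2 with 16.5, 23.3, 30.9 and 46.0 RPM. Single genes rose in the P-TEFb (EAF1, of 25), p53 target (SESN2, of 23), hypoxia (KDM3A, of 17) and TGF-beta feedback (NEDD9, of 10) lists. The same held for the G1 (E2F3, of 19) and tRNA synthetase (CARS, of 20) lists. SESN2 was already counted on the ATF4 list. Of the 23 p53 target genes 4 were higher at 2 h alone, against 2.23% of all genes. Of 46 ribosome biogenesis genes 2 rose (UTP6 and RRP12). Each of these named calls was lost without the 0 h library (adjusted p from 0.0944 to 0.656), and each but that of HSF2 without the 20 min library too (0.0699 to 0.457).

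The libraries outside the comparison place these changes in time. At 40 min, 25 of the 88 genes higher at both times had reached 1.5 times the earlier pool, against 55 of all 9256. The class median was 1.26-fold at 40 min, 2.04-fold at 1 h and 2.51-fold at 2 h. In 65 of the 88 the 2 h value was above the 1 h value, as in 5055 of all 9256 genes. At 8 h the median was back to 1.22-fold and at 12 h to 1.09-fold, close to the 1.12-fold and 1.09-fold of all genes. Genes higher at 2 h alone had a median of 1.07-fold at 40 min, 1.26-fold at 1 h and 1.78-fold at 2 h, and kept 1.57-fold at 8 h and 1.43-fold at 12 h. Of these 206 genes, 114 were at 1.5-fold or more at 8 h, as were 2049 of all 9256 genes. The 6 genes lower at both times went from a median of 0.49-fold at 2 h to 0.90-fold at 12 h. In cells without 4sU the class higher at both times had a median of 0.95-fold and the class higher at 2 h alone 1.38-fold, against 0.97-fold for all genes. That library stood apart in general, with 2517 of the 9256 genes at least 1.5-fold above the earlier pool and 2862 at least 1.5-fold below it.

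**Figure D3:**
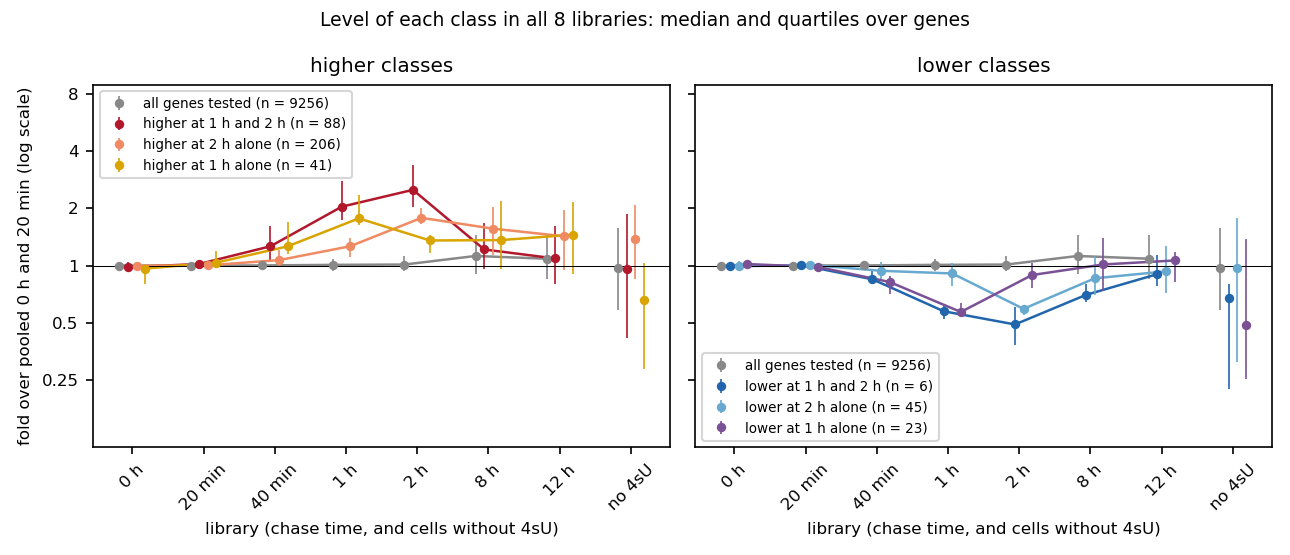
Points are median folds over the pooled 0 h and 20 min level (y, log scale) of each fold class and of all 9256 genes in each of the 8 libraries (x), and bars span the quartiles over genes. The class higher at both later times peaks at 2.51-fold at 2 h and is at 1.22-fold at 8 h, while the class higher at 2 h alone is still at 1.57-fold at 8 h.

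Individual genes differed in how long the change lasted. KLF4 was at 10.8 RPM at 8 h, ATF3 at 3.21 RPM and FOSB at 0.535 RPM, all near or under their earlier values. DAAM1, ANKRD28 and RFX2 were at 22.5, 21.6 and 7.66 RPM at 8 h, so that of the 7 chase libraries only that of 2 h was high. Without 4sU, ANKRD28 was at 37.4 RPM. The counted segment of CSTF3, in contrast, went on to 90.9 RPM at 8 h and 97.5 RPM at 12 h, with 168 RPM without 4sU, and PIM1 reached 123 RPM at 12 h. PRDM1 and BTG2 were at 44.8 and 126 RPM at 12 h. IL1B and TNFAIP3 were at 141 and 136 RPM at 12 h, above every one of the first 5 libraries.

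The labelled reads are the part of the total that carries 4sU from the pulse or from early in the chase. The genes were chosen on totals that include these reads, so the split describes the change and is not independent of the choice. In the 88 genes higher at both times the median labelled share was 55.7% at 0 h, 35.2% at 1 h and 26.0% at 2 h. Over all genes it was 44.5%, 41.2% and 33.2%. Their summed level went from 2648 RPM at 0 h to 5842 at 1 h and 6181 at 2 h, of which 1502, 2127 and 1642 RPM were labelled. The labelled level was above both earlier ones in 77 of the 88 genes at 1 h and in 48 at 2 h, against 2869 and 1266 of all 9256 genes. Labelled reads made up 20.3% of the summed gain over the earlier pool at 1 h and 4.2% at 2 h. In the genes higher at 2 h alone the labelled sum was level, 3176 RPM at 0 h and 2967 at 2 h, while the unlabelled sum went from 2842 to 8153 RPM. In the 6 genes lower at both times labelled reads carried 63.6% of the drop at 1 h and 82.4% at 2 h. In the genes lower at 2 h alone they carried 83.8% at 2 h. Label was lost widely, the labelled level at 2 h being below both earlier ones in 6045 of all 9256 genes. A read without a T-to-C change can also be labelled RNA in which no change was seen.

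**Figure D4:**
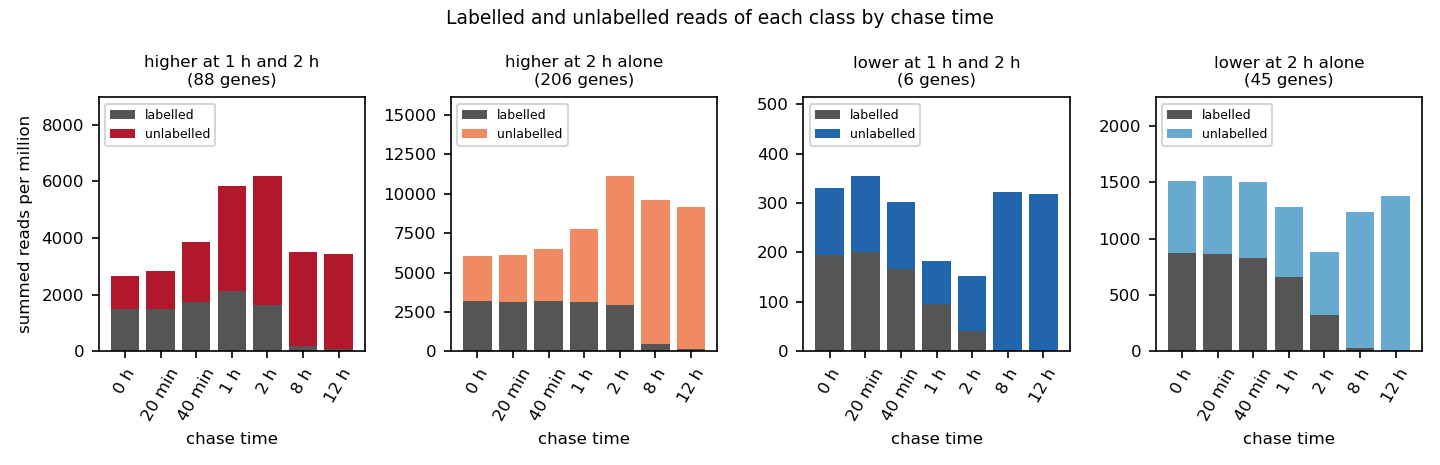
Stacked bars give the summed RPM (y, linear, from 0) of 4 fold classes at the 7 chase times (x), with labelled reads in grey and unlabelled reads in colour. The gain of the 2 higher classes at 2 h is nearly all unlabelled, and the labelled sum of the 6 genes lower at both times goes from 194 RPM at 0 h to 40.5 RPM at 2 h.

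Genomic span of the gene, which was not used in the choice, differed between the classes. Spans were taken from GENCODE 29 (GRCh38) gene records, from the first to the last annotated base over all isoforms. They can exceed the length of the transcript counted, and this is a description without a test. The median span was 30.9 kb over all genes tested (quartiles 13.0 and 68.0 kb) and 25.1 kb for genes higher at both times (7.57 and 59.6 kb). It was 64.1 kb for genes higher at 2 h alone (28.3 and 117 kb), and 80.3 kb for the 88 of them whose 2 h value was at least 1.5 times the 1 h value. Among the genes higher at 2 h alone 41.7% spanned over 80 kb, against 21.2% of all genes. Genes lower at 2 h alone were short, with a median of 14.5 kb, and the 6 lower at both times had a median of 5.89 kb. DAAM1 spans 183 kb, ANKRD28 193 kb, RFX2 206 kb and PRICKLE1 134 kb, whereas KLF4 spans 5.63 kb, SOCS3 3.30 kb, PPP1R15A 3.67 kb and DUSP1 3.11 kb. PPP1R10, at 18.2 kb, and IRF1, at 9.19 kb, were short genes of the 2 h class.

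**Figure D5:**
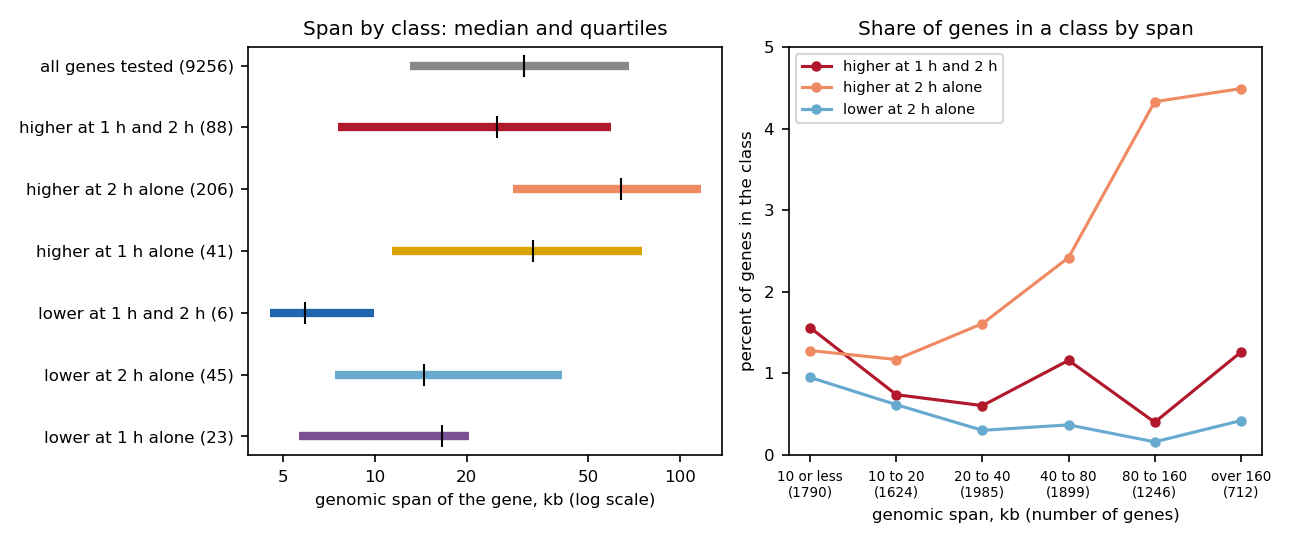
Left, genomic span in kb (x, log scale) of each fold class (y), with bars from the lower to the upper quartile and a tick at the median. Right, percent of genes in a class (y) by span (x, with the number of genes in each bin). The share higher at 2 h alone goes from 1.28% of genes of 10 kb or less to 4.49% of those over 160 kb.

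Share and level both moved with span. The share of genes higher at 2 h alone was 1.28% at 10 kb or less, 1.61% at 20 to 40 kb, 4.33% at 80 to 160 kb and 4.49% above 160 kb. The share higher at both times had no single order, with 1.56%, 0.739%, 0.605%, 1.16%, 0.401% and 1.26% from the shortest bin to the longest. Over all genes the median fold at 2 h went from 0.974 in the shortest bin to 1.077 in the longest, and at 8 h from 0.959 to 1.312. The library without 4sU showed the same order, 0.865 to 1.119, so longer genes had relatively lower levels at the end of the pulse than in cells without 4sU. The part of this trend in the 2 h class was not tested.

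Positions are the hg19 starts of the 3′ UTR segment that was counted, on the strand of the gene. Among genes higher at both times these were 19:45976271 (plus) for FOSB, 9:110247133 (minus) for KLF4, 1:212792898 (plus) for ATF3, 17:76352864 (minus) for SOCS3, 17:8043790 (minus) for PER1 and 19:49379231 (plus) for PPP1R15A. DAAM1 was counted from 14:59835578 (plus) and ANKRD28 from 3:15708743 (minus). PRDM1 was counted from 6:106555362 (plus), RGS16 from 1:182567758 (minus) and BTG2 from 1:203276567 (plus).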

How the data were processed

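Poly(A) 3′ ends of 8 THP-1 RNA samples were sequenced (QuantSeq 3′ FWD, per the labels' protocols). The authors deposited raw counts of all reads and of converted reads per 3′ UTR segment. Demultiplexing with bcl2fastq 2.17.1.14, trimming with Trim Galore 0.6.5 and the hg19 build come from the submitters' processing notes. An aligner, a counting tool and a conversion threshold were not given in the sources used here. The column for 0.3 h was taken as the 20 min library and that for 0.6 h as 40 min. GENCODE 29 named 48045 of 56570 transcripts (84.9%), leaving 5.65% of reads unnamed. Each gene was represented by its most covered segment. Left out were 3056 segments on other contigs and 85 genes with the same counts as another gene.

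Counts were tested in edgeR 4.0.16 (R 4.3.3) after TMM scaling and a filter that asked for a mean of 50 reads (9256 genes), at a Benjamini-Hochberg adjusted p under 0.05, and the fits were tested on simulated data. DESeq2 1.42.0, other filters, summed segments and left-out libraries were alternatives. P-values measure the spread between single libraries of adjacent times. Each SE given with edgeR was derived from its test, as the absolute log2 over the square root of the F statistic. Intervals are 95% exact (Clopper-Pearson) and cover counting error only, since no molecular identifiers were used. Genes, lists and classes were chosen with earlier results of these data known. Named genes were the 8 largest changes per class among those of mean count 200 or more, and up to 4 members per list with a call or a class member. FOS, EGR1, JUN, KLF2, KLF6, KLF10, IER5, JUND, SRF, CBY1, MLF1, IFT57, IL1B, CXCL8, TNFSF9, CD83, CEBPA, DOLK, NANP, PIM3, CREB1, PTGER4 and SGK1 were named after their values were seen.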

Additional observations from a re-analysis of the deposited data

How the results depend on the processing

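Among 9256 genes, 1311 had an unadjusted p under 0.05 between windows and 1185 between 2 h and 1 h. Without a count filter the window test called 62 higher and 2 lower and the 2 h against 1 h test 0 and 0 (edgeR, 1031 genes at an unadjusted p under 0.05). Leaving out 1 library gave 47 to 703 higher and 2 to 326 lower calls between windows, all 172 and 27 genes being kept without 1 h. Summed segments gave 14 lower. DESeq2 called 120 higher, 119 of them shared with edgeR, and 19 lower. For 2 h against 1 h, unscaled library totals gave 213 higher, DESeq2 10 and 2, a mean count of 200 gave 71 and 22, and summed segments 52 and 22. Without either earlier library no residual degree of freedom was left there. At a fold of 1.3 the classes held 216 (both higher), 24 (both lower), 440 (2 h higher) and 129 (2 h lower) genes, at a fold of 2 33, 0, 63 and 5, and at a mean count of 200 44, 3, 86 and 5. Of the 206 genes higher at 2 h alone, 139 stayed in that class at a fold of 1.3. At a fold of 2, 32 of the 63 were among the 206, so the split between 1 h and 2 h depended on the cut. At a mean count of 20, 19 genes were lower at both times and 104 at 2 h alone. Scaling by TMM or DESeq2 factors kept 84 and 86 of the 88 genes and all 6 lower ones. Of 123 named genes 49 were called; 27 of these lost the call without the 0 h library and 24 without 20 min, while 43 others gained one without 1 h. With 1 library left out the log2 ran from -0.06 (without 2 h) to 1.76 for DAAM1, from -1.858 (without 1 h) to 3.857 for DUSP1, from -0.487 to 0.058 (without 20 min; 0.041 without 2 h) for DNAJB9, an endoplasmic reticulum chaperone, and from -0.053 (without 2 h) to 0.5 for IFIH1, an RNA sensor. In each fit with 1 library left out the spread came only from the window that kept 2 libraries, so lost and gained calls also follow that swap. Why single log2 values moved was not tested. No paired analysis was possible because each condition had 1 library.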
